A study of Mus musculus with 192 samples.

Results

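Oxidative phosphorylation subunits encoded in the nucleus were followed across 9 tissues of flown and ground-kept mice. The genes were taken by name: accessory and core subunits of complex I (Nduf a, b, c, s and v), the 4 Sdh subunits of complex II, the Uqcr genes and Cyc1 of complex III, the Cox4 to Cox8 genes of complex IV, and the Atp5 genes of complex V. Names containing -ps, of which there were 8, were left out. This gave 90 of the 54752 genes in the table. By name, 40 were placed in complex I, 4 in complex II, 9 in complex III, 19 in complex IV and 18 in complex V. Whether a single protein, such as Ndufa4, belongs to the complex of its name was not checked. The 90 genes carry 89 symbols, because Atp5o stands under 2 identifiers. Of the 90, 4 are annotated as processed pseudogenes (Ndufa11b, Ndufb4c, Ndufs6b and Cox6c2). Reads of near-identical copies may be split between genes, which makes the levels of Ndufb4 and Ndufb4c, of Cox6c and Cox6c2, and of Atp5g1, Atp5g2 and Atp5g3 uncertain.

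Oxidative phosphorylation takes place in the inner mitochondrial membrane. Complexes I and II feed electrons from NADH and succinate to ubiquinone, complex III passes them to cytochrome c, complex IV hands them to oxygen, and complex V makes ATP from the proton gradient that complexes I, III and IV build. Complexes I, III, IV and V join subunits from the nuclear and the mitochondrial genome, and only complex II is wholly nuclear. Brown fat is dense in mitochondria and lets the gradient dissipate as heat through Ucp1, and complex IV has isoforms that muscle and brown fat use beside the common forms.

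The mice were male C57BL/6J, either WT or Nrf2-KO (the Nfe2l2 tm1Ymk allele, a germline change present in all cells), with a labelled age of 12 weeks. The paper's methods give 12 weeks as the age before transport to the station, so mice flown for about a month were older at dissection. FL_WT and FL_KO mice were housed individually on the International Space Station and dissected after their return to the ground, and GC_WT and GC_KO mice were kept singly in the same kind of cage on the ground, in a run held later in the same year. Nrf2-KO mice had been screened to remove those with a hepatic shunt, and flight, landing, recovery and the date of the run cannot be told apart. RNA was measured in brown fat from between the shoulder blades (iBAT), white fat of the epididymis (eWAT), liver (Liv), cerebrum (Cbr), kidney (Kid), thymus (Thy), spleen (Spl) and bone of the temple (temporal, TpB) and the lower jaw (mandibular, MdB), with 6 mice in GC_WT, FL_WT and GC_KO and 5 in FL_KO. MdB had 3, 3, 3 and 2 mice and Kid had 3 in each group, and FL_KO mouse 04, which had intestinal hemorrhage, was left out. These are bulk tissues, in which fewer cells of a type and less RNA per cell cannot be told apart.

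Promoters of the isoform pairs that carried the clearest pattern are shown first, read from RefSeq annotation on GRCm38.p6. Each window holds the 250 bases before the gene's start, 5′ to 3′ on the gene's strand. For Cox7a1 (chr7:30183921-30184170, plus strand), Cox7a2 (chr9:79759854-79760103, minus strand), Cox8b (chr7:140900447-140900696, minus strand) and Cox8a (chr19:7217617-7217866, minus strand) capitals mark CG dinucleotides.
Cox7a1: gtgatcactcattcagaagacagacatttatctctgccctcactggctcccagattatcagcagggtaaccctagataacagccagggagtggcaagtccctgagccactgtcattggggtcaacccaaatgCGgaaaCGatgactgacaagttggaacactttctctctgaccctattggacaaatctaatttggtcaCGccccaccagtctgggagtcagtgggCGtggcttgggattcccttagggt
Cox7a2: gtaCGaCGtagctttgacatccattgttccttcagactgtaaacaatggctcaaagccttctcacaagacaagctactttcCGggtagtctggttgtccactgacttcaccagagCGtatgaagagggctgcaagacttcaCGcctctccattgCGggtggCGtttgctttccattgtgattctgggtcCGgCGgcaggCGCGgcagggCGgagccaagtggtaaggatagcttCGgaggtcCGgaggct
Cox8b: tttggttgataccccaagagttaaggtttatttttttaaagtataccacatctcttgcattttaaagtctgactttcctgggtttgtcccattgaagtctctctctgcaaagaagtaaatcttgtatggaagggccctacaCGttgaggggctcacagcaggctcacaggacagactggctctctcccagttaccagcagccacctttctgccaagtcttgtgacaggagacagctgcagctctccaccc
Cox8a: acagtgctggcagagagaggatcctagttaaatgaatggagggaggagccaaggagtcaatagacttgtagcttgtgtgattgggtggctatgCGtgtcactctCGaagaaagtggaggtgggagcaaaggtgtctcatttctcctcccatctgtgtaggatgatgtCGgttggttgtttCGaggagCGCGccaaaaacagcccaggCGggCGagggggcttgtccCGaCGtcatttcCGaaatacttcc
The muscle and brown fat isoforms held 4 (Cox7a1) and 1 (Cox8b) CG dinucleotides, and the common isoforms 14 (Cox7a2) and 11 (Cox8a). RefSeq windows of 300 bases, 250 before and 50 after the start, matched 66 of the 89 symbols in 71 windows. The median number of CG dinucleotides was 19 in these windows and 7 in all 32851 windows.

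Short motifs of factors known for mitochondrial genes were counted on both strands of the same windows. NRF1 (nuclear respiratory factor 1, the product of Nrf1 and a different protein from Nrf2) was searched as GCGC, any base and then TGCGC, and was found in 18 of 71 windows (25.4%), against 4.6% of all windows. The ETS motif CCGGAAG, which GABP binds, stood in 22.5% against 8.86%, and the YY1 motif AAGATGGCG in 9.86% against 1.4%. The ERR motif TCAAGGTCA stood in 2.82%, in Atp5g3 and Sdhd, against 0.423%. TGACNNNGC, the core of the antioxidant response element that Nrf2 binds, stood in 14.1% against 12.4%. The motifs were not masked for overlap, and a match describes letters in the window and no binding. The NRF1, ETS and YY1 motifs contain CG, whose median number was 19 in these windows and 7 in all windows. The shares were not matched for CG. Windows with several NRF1 matches were those of Sdha, Ndufb4, Cox6a1 and Uqcrc1. Shown as examples, with NRF1 matches in capitals, are Cox6a1 (chr5:115348959-115349208, minus strand) and Sdha (chr13:74350241-74350490, minus strand).
Cox6a1: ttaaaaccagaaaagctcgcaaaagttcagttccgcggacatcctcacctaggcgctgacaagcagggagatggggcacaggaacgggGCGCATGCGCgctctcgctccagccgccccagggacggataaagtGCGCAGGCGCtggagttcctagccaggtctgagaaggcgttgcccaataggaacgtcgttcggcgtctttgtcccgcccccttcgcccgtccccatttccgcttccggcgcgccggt
Sdha: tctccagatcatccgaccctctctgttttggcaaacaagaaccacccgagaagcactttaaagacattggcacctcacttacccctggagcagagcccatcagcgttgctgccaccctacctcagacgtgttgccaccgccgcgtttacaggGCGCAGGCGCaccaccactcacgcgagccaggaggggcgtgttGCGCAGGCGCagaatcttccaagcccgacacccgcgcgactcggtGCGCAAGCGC

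The 184 libraries held 13.1 to 16.3 M counts, and 8.01 to 10.6 M in Thy, whose libraries were made from rRNA-depleted total RNA and not from poly(A) RNA. Nfe2l2, the gene of Nrf2, had a log2 fold change of -1.13 (Kid) to -1.81 (Cbr) in GC_KO against GC_WT in 8 tissues and of -0.25 in Spl (edgeR, adjusted p = 0.00039), and no KO library in Spl (60.4 to 67.8 TPM) overlapped the WT libraries (73.1 to 86.7 TPM). Marker genes of the labelled tissue were all present in each group. In iBAT 3 libraries stood apart by skeletal muscle transcripts. The summed TPM of 15 muscle markers was 10447 in FL_WT mouse 06, 5104 in FL_WT mouse 08 and 12829 in FL_KO mouse 11, and 37.5 to 167 in the other iBAT libraries. Counts of calls over all members and over the pathway lists in iBAT are therefore given with and without these 3 libraries.

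The subunits were abundant in every tissue, and brown fat led. In GC_WT, 73 of the 90 genes had a mean of at least 5 TPM (RSEM's transcript level, corrected for gene length and library size) in all 9 tissues. The median TPM of the 90 genes was 336 in iBAT, 241 in Kid, 168 in TpB, 164 in Cbr, 160 in eWAT, 120 in MdB, 102 in Liv, 70.3 in Spl and 54.4 in Thy. Their summed TPM was 44367 ± 2493 in iBAT (SD, n = 6), which is 4.44% of all transcripts, against 29148 ± 947 in Kid (SD, n = 3) and 5858 ± 314 in Thy (SD, n = 6), or 0.586%. Cbr (20565 ± 1290), eWAT (20040 ± 1133) and TpB (18820 ± 1517; SD, n = 6 each) were neighbours whose values lay within their spread. MdB (14477 ± 226, n = 3) and Liv (13742 ± 676, n = 6) were also close, and Spl (8560 ± 214, n = 6) lay between them and Thy. Because the Thy libraries were prepared differently, their place in this order and their preparation cannot be told apart.

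**Figure D1:**
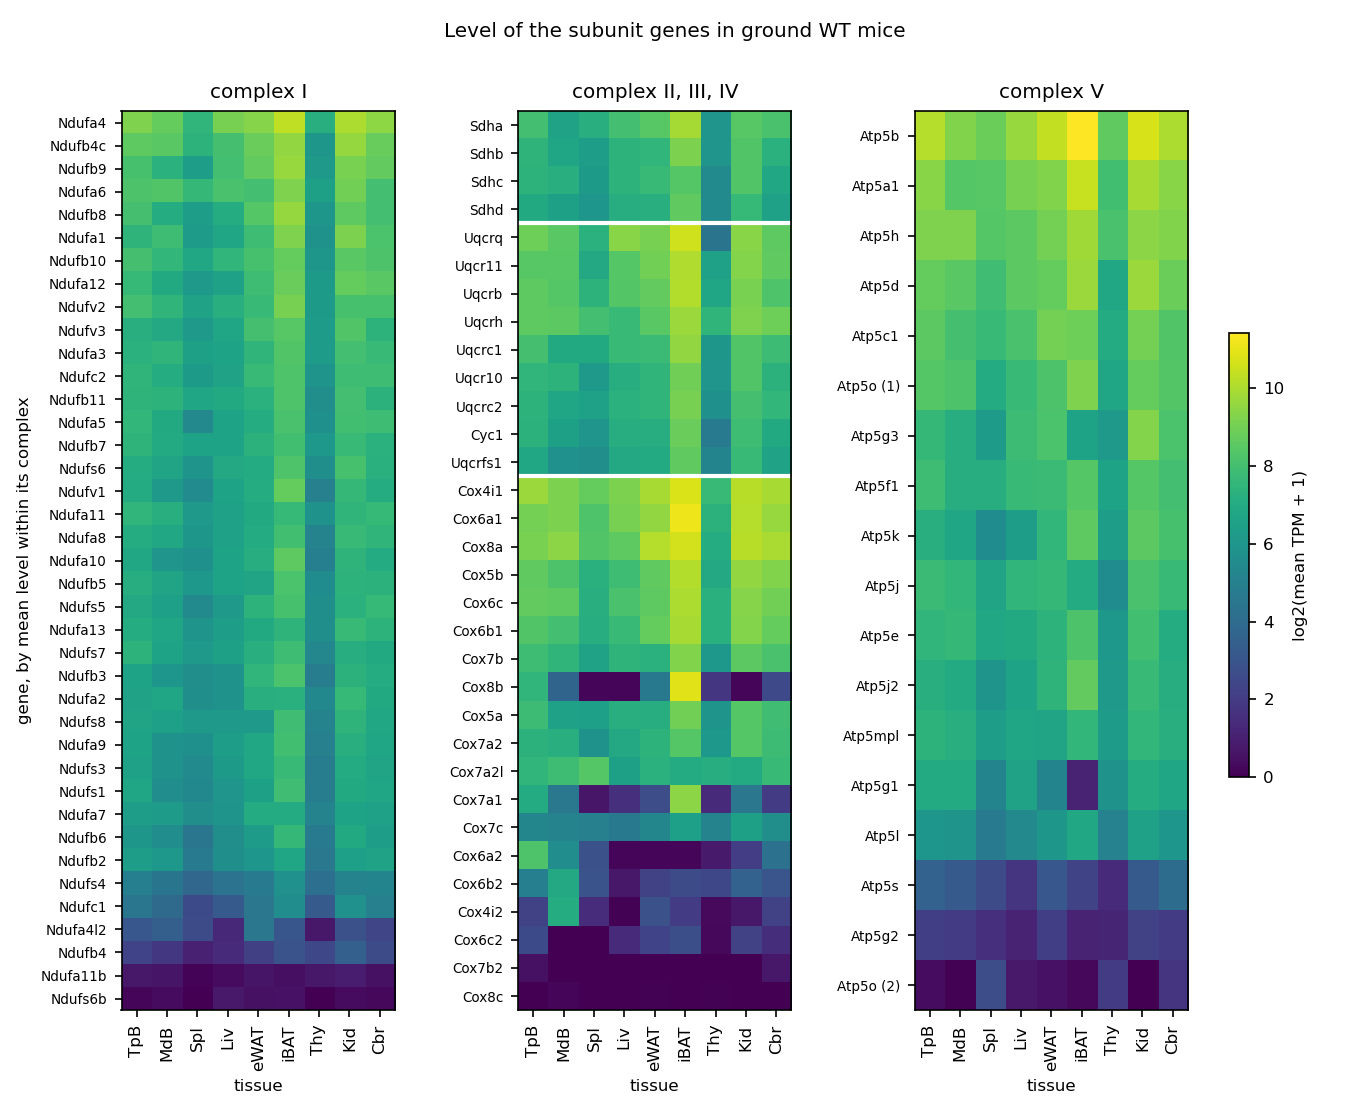
Heatmap of log2(mean TPM + 1) in GC_WT (6 mice, 3 in MdB and Kid) for 89 of the 90 genes (rows, by complex) in the 9 tissues (columns). Most rows are bright in iBAT, where the median level was 336 TPM, and dim in Thy, where it was 54.4 TPM, and the isoforms of complex IV stand out as rows that are bright in a few tissues only.

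Atp5b, the catalytic beta subunit of ATP synthase, was the highest gene in 8 tissues, from 397 TPM in Thy to 2742 TPM in iBAT. In MdB the highest was Cox8a at 691 TPM. Averaged over the tissues, the highest and lowest members were Ndufa4 (622 TPM) and Ndufs6b (0.27) among the complex I names, Sdha (304) and Sdhd (144) in complex II, Uqcrq (537) and Uqcrfs1 (132) in complex III, Cox4i1 (833) and Cox8c (0.022) in complex IV, and Atp5b (1136) and the other Atp5o identifier (1.39) in complex V. The flavoprotein Sdha and the small membrane subunit Sdhd thus differed least, and complex IV spanned the widest range, since it holds isoforms that are near 0 in most tissues. In all, 5 genes were below 5 TPM in all 9 tissues (Atp5g2, Cox7b2, Cox8c, Ndufa11b and Ndufs6b), and the remaining 12 reached it in some tissues only.

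These 12 are mostly alternative isoforms. Cox7a1, the muscle form of a small complex IV subunit, was at 690.1 ± 107 TPM in iBAT (SD, n = 6) and 131 ± 43.6 in TpB, against 22.8 in MdB and 0.61 in Spl, while its common counterpart Cox7a2 was at 336 ± 34.9 in iBAT, 341 ± 24.9 in Kid and 159 in TpB. Cox8b was at 1941 ± 199 TPM in iBAT, 184 ± 55.7 in TpB and 0.11 in Liv, and the common Cox8a was at 1591 ± 137 in iBAT. Brown fat thus carried both muscle isoforms above the common form of the same subunit. Cox6a2, another muscle isoform, went the other way, with 307 ± 111 TPM in TpB, 47.5 in MdB, 17.9 in Cbr and 0.14 in GC_WT iBAT, where Cox6a1 stood at 2225 ± 178. Skeletal muscle markers were abundant in TpB (summed TPM 12370 to 33389 in GC_WT), and the part that muscle has in these TpB isoform levels was not tested.

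Mandibular bone had its own pair. Cox4i2, an isoform of the largest nuclear complex IV subunit that is known from lung and from low oxygen, was at 134 ± 11.5 TPM in MdB (SD, n = 3) and at most 6.20 in the other tissues, beside 566 TPM of Cox4i1. Cox6b2, known as the testis isoform, was at 116 ± 7.18 TPM in MdB and 29.2 in TpB, beside 258 TPM of Cox6b1 in MdB. Ndufa4l2, the relative of Ndufa4, was highest in eWAT at 22.02 ± 4.81 TPM (SD, n = 6). Of the 3 genes for the c subunit of ATP synthase, Atp5g1 was at 1.22 ± 0.544 TPM in iBAT and 34.4 to 134 in the other tissues, and Atp5g3 was at 97.6 in iBAT and 628 in Kid. The split between Ndufb4 (1.04 to 10.2 TPM over the tissues) and the annotated pseudogene Ndufb4c (66.0 to 779 TPM) belongs to the uncertain pairs.

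**Figure D2:**
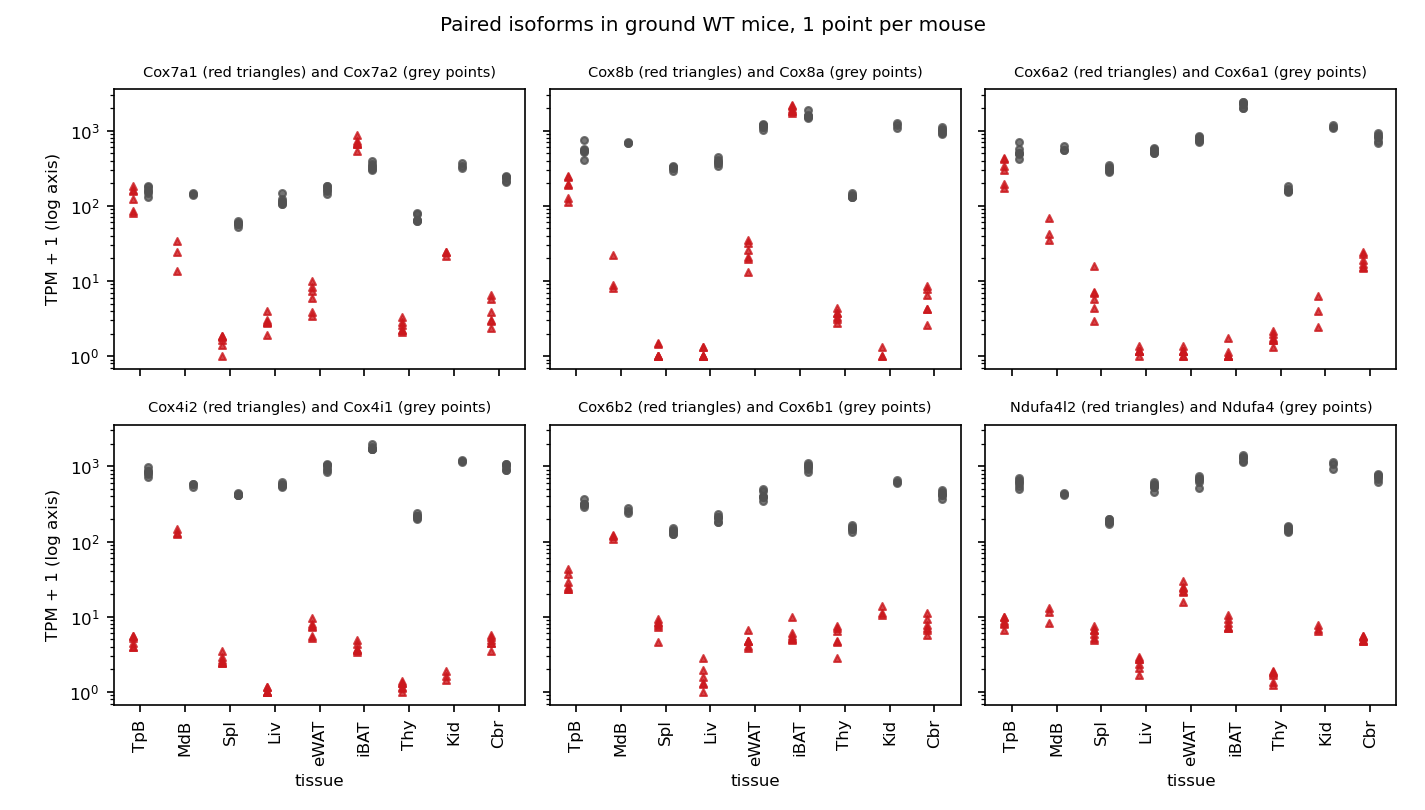
TPM + 1 (log axis) of 6 isoform pairs in GC_WT, with 1 point per mouse and the 9 tissues along the horizontal axis. Red triangles are the isoform with the narrower distribution and grey points its counterpart, and the triangles of Cox7a1 and Cox8b lie above the points in iBAT, while those of Cox6a2 reach 307 TPM on average in TpB and lie near 0 in iBAT.

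The next question was what flight did to these genes in each genotype. Differences are log2 fold changes of TMM-normalised counts, which set the typical gene of a tissue to about 0, tested by edgeR's quasi-likelihood test with Benjamini-Hochberg adjustment over all genes of the tissue and called at an adjusted p under 0.05. In all, 745 pairs of gene and tissue could be tested. With flight, 97 pairs were lower and 2 higher in WT, and 121 were lower and 2 higher in Nrf2-KO. The lower pairs lay in iBAT (67 and 73), Thy (22 and 47), eWAT (8 and 0) and Liv (0 and 1). On a TPM scale, which divides by all transcripts of a library, fewer members were lower and more were higher, and these counts are given for iBAT, Thy, eWAT and Liv. Uqcrfs1, the Rieske iron-sulfur protein of complex III, was called in 6 combinations of tissue and contrast, and Cox6a1, Ndufa6, Ndufs8 and Uqcrc2 were among those called in 5.

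Brown fat showed the widest change. Of 85 subunit genes tested in iBAT, 67 were lower in FL_WT than in GC_WT, where 10.3% of all genes tested were lower, and 73 were lower in FL_KO than in GC_KO, where 16.6% were. On the TPM scale (83 genes, limma) 32 were lower and 9 higher in WT (3.58% and 55.8% of all genes), and 31 were lower and 8 higher in Nrf2-KO (5.36% and 65.3%). Genes called lower on both scales numbered 32 and 31, 3 were called in opposite directions in Nrf2-KO, and the sign differed between the scales for 19 and 16 genes. For the rest the call holds relative to the typical gene and not to all transcripts. The distance to the median of all genes was alike on both scales, at -0.45 and -0.58 by counts and -0.42 and -0.54 by TPM (log2, WT and Nrf2-KO).

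The lower genes spread over all 5 complexes. In WT they were 33 of 38 tested in complex I, 4 of 4 in complex II, 9 of 9 in complex III, 11 of 17 in complex IV and 10 of 17 in complex V, and in Nrf2-KO 35, 4, 9, 12 and 13 of the same numbers. The median log2 fold change in WT was -0.44, -0.42, -0.49, -0.44 and -0.28 for complexes I to V, and in Nrf2-KO it was -0.54, -0.59, -0.60, -0.46 and -0.48. Over all members tested it was -0.42 and -0.54, beside 0.02 and 0.04 over all genes. The genes lower in both genotypes numbered 66, which is 98.5% of those lower in WT and 90.4% of those lower in Nrf2-KO. Without the 3 libraries with muscle transcripts 66 of 84 genes were lower in WT and 72 in Nrf2-KO, with medians of -0.47 and -0.50. Shares of all genes called in fits without these libraries are not given, here or for the pathway lists below.

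**Figure D3:**
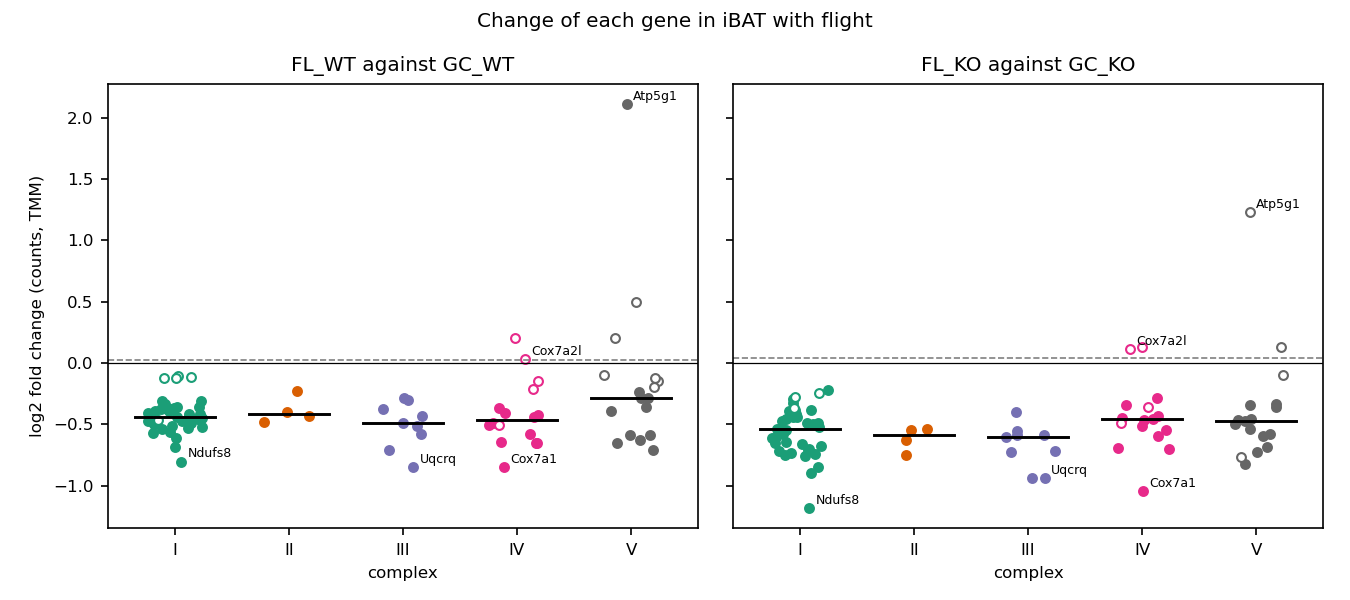
Log2 fold change of TMM-normalised counts in iBAT for each subunit gene, by complex, in FL_WT against GC_WT and FL_KO against GC_KO. Filled points passed the edgeR test, the black line is the median of the complex (-0.49 and -0.60 in complex III) and the dashed line the median of all genes, and Cox6a2, whose values rest on 3 libraries, is not drawn.

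Among the subunits with the largest falls was Cox7a1 (ENSMUSG00000074218.3, chr7:30184144-30186078 on GRCm38). Its level in iBAT was 533.32 to 865.23 TPM (median 678.63) in GC_WT, 393.12 to 555.08 (median 478.04) in FL_WT and 641.1 to 707.11 (median 664.38) in GC_KO, and the 5 FL_KO mice had 424.35, 395.5, 470.71, 467.57 and 426.26 TPM. All FL_KO mice lay below all GC_KO mice, while in WT the highest flown mouse lay above the lowest ground mouse. The log2 fold change by counts was -0.85 (SE 0.120, adjusted p = 3.98e-05) in WT and -1.04 (SE 0.127, adjusted p = 2.28e-06) in Nrf2-KO, and by TPM it was -0.52 and -0.61. Cox8b, the other brown fat isoform, had a log2 fold change of -0.65 (adjusted p = 0.000358) and -0.70 (adjusted p = 0.00012) by counts and -0.32 and -0.28 by TPM.

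The common counterparts moved less. Cox7a2 had -0.50 and -0.43 by counts, and -0.18 and 0.00 by TPM. Cox8a had -0.41 and -0.45 by counts, and -0.09 and -0.02 by TPM. The ratio of both isoforms within a library does not depend on the scale. The log2 ratio of Cox7a1 to Cox7a2 was 1.03 ± 0.11 (SD, n = 6) in GC_WT and 0.69 ± 0.20 in FL_WT (difference -0.34, exact two-sided permutation test, p = 0.00649, adjusted p = 0.00866), and 1.17 ± 0.06 in GC_KO and 0.55 ± 0.09 (n = 5) in FL_KO (difference -0.61, exact permutation p = 0.00216, adjusted p = 0.00433). For Cox8b to Cox8a it went from 0.28 to 0.05 in WT (difference -0.23, exact permutation p = 0.0108, adjusted p = 0.0108) and from 0.16 to -0.10 in Nrf2-KO (difference -0.26, exact permutation p = 0.00216, adjusted p = 0.00433). These 4 comparisons were chosen after the values of the genes had been seen, and 0.00216 is the smallest p that 462 divisions of 5 against 6 mice allow. Without the 3 libraries with muscle transcripts the differences were -0.32 and -0.64 for Cox7a1 to Cox7a2 and -0.31 and -0.26 for Cox8b to Cox8a (exact permutation p = 0.0143, 0.00476, 0.00476 and 0.00476). The difference of Cox8b to Cox8a in WT leaned on FL_WT mouse 03, whose ratio was -0.45 against 0.07 to 0.25 in the other FL_WT mice, and was -0.13 without it (exact permutation p = 0.0325). The muscle and brown fat isoforms thus fell relative to the common ones in both genotypes.

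All of complex III was lower by counts. Uqcrq (ENSMUSG00000044894.14, chr11:53427922-53430831), the small ubiquinone-binding subunit, was at 1323.55 to 1804.21 TPM (median 1595.74) in GC_WT and 1016.58 to 1149.54 (median 1095.87) in FL_WT. In GC_KO it was at 1448.75 to 1529.65 TPM (median 1500.35), and in FL_KO at 939.17 to 1199.19 (median 1056.02). No flown mouse reached the ground mice of its genotype. The log2 fold change was -0.85 (SE 0.091, adjusted p = 1.34e-06) and -0.94 (SE 0.096, adjusted p = 2.10e-07) by counts and -0.50 in each genotype by TPM. Uqcr10, another small subunit, had -0.71 (adjusted p = 1.14e-05) and -0.73 by counts.

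In complex I the largest fall by counts was that of Ndufs8 in both genotypes. Ndufs8 (ENSMUSG00000059734.6, chr19:3908863-3912774) carries iron-sulfur clusters of the electron path. It was at 223.44 to 267.41 TPM (median 235.09) in GC_WT, 152.91 to 181.89 (median 169.74) in FL_WT and 226.21 to 238.55 (median 231.55) in GC_KO, and the FL_KO mice had 124.43, 130.07, 150.53, 151.62 and 134.91 TPM. The groups of flown and ground mice did not overlap in either genotype, and every FL_KO mouse lay below every FL_WT mouse. The log2 fold change by counts was -0.80 (SE 0.080, adjusted p = 4.78e-07) in WT and -1.18 (SE 0.086, adjusted p = 2.05e-09) in Nrf2-KO. Ndufs4, a subunit needed to complete the complex, had -0.62 in WT and -0.90 in Nrf2-KO (adjusted p = 8.59e-07).

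In complex II, Sdha had -0.40 and -0.54 by counts. In complex V, Atp5k, the e subunit at the dimer interface, had the largest fall in WT with -0.71 (adjusted p = 0.000115) and -0.69 by counts. Atp5b had -0.28 (adjusted p = 0.00182) and -0.48 (adjusted p = 5.98e-06) by counts and 0.03 and -0.04 by TPM, with 2446.49 to 3024.15 TPM (median 2798.72) in GC_WT and 2602.06 to 2963.23 (median 2802.12) in FL_WT. Its TPM ranges overlapped, so its place among the lower genes holds relative to the typical gene only. Cox4i1 had -0.21 by counts in WT (adjusted p = 0.0548, not called) and -0.28 in Nrf2-KO (adjusted p = 0.00849), and in Nrf2-KO it was called in the opposite direction by TPM (0.15, limma, adjusted p = 0.0227).

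**Figure D4:**
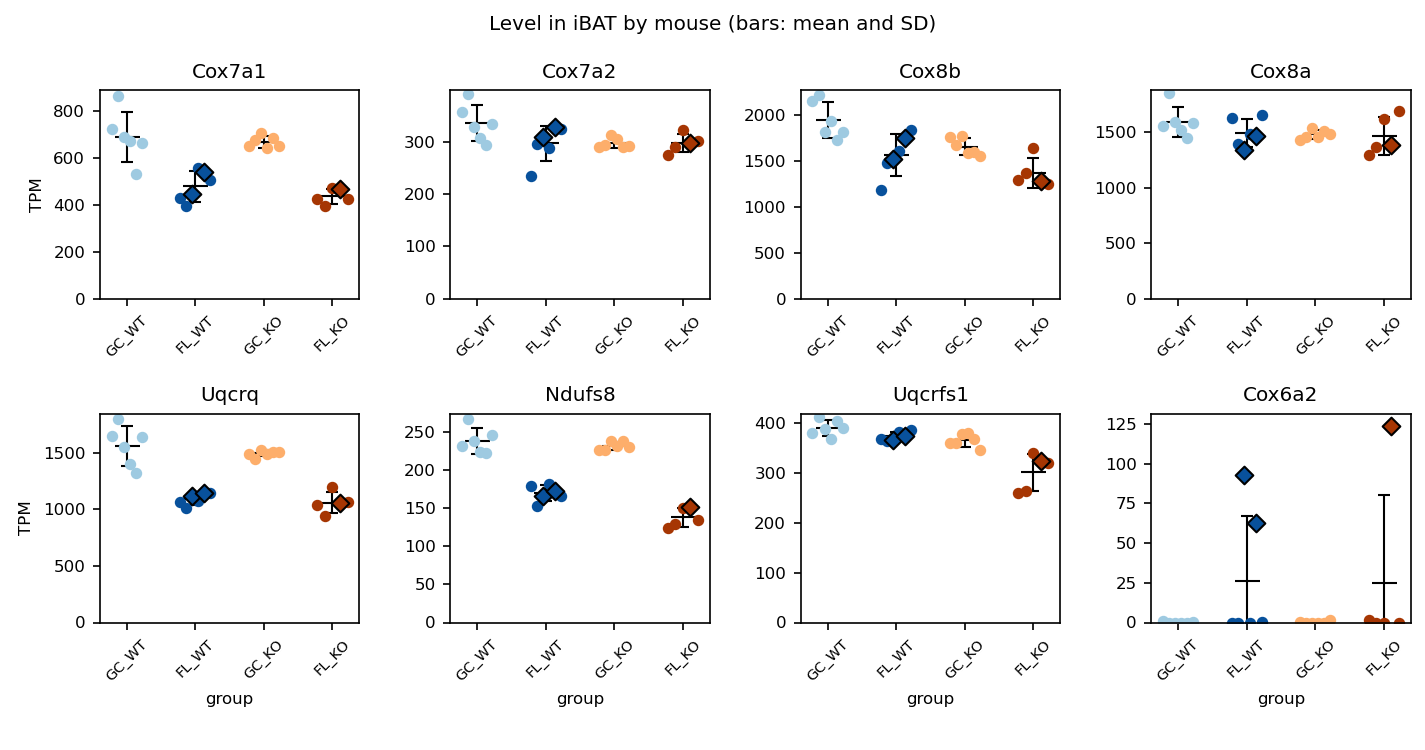
TPM in iBAT by mouse in GC_WT, FL_WT, GC_KO and FL_KO for 8 complex III, complex IV and complex I genes, with bars for the mean and SD. Diamonds are the 3 libraries with muscle transcripts. Cox7a1, Uqcrq and Ndufs8 are lower in the flown mice of both genotypes, and Cox6a2 is raised in the diamonds alone, at 62.93 to 123.9 TPM.

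Not every subunit was called. Of the 85 tested genes 18 were not called lower in WT and 12 in Nrf2-KO, and these were alternative or rare forms such as Ndufa4l2, Cox4i2, Cox6b2, Cox6c2, Atp5g2 and Atp5s as well as common subunits. The common ones in WT were Ndufb10, Ndufs7, Ndufv3, Cox4i1, Atp5c1, Atp5f1, Atp5g3 and Atp5j, with log2 fold changes of -0.21 (Cox4i1) to -0.10 (Atp5g3), and in Nrf2-KO Ndufa7, Ndufv3 and Atp5j. Cox7a2l, which takes part in joining complexes III and IV, had 0.03 (adjusted p = 0.83) and 0.11 (adjusted p = 0.303) by counts. By counts 2 genes were higher in WT and 1 in Nrf2-KO, where 8.83% and 17% of all genes were higher. Cox6a2 was at 92.67 TPM in FL_WT mouse 06, 62.93 in FL_WT mouse 08 and 123.9 in FL_KO mouse 11, and at 0 to 1.36 in all other iBAT libraries. Its fitted log2 values of 7.02 (SE 2.20, adjusted p = 0.0283) and 6.11 (SE 2.10, adjusted p = 0.0288) thus rest on the 3 libraries with muscle transcripts, and became -0.26 and -0.79 with the muscle level as a covariate. Atp5g1 was higher in FL_WT, with 3.17, 8.67, 15.99, 0.9, 14.47 and 3.24 TPM against 0.4 to 1.99 in GC_WT (log2 fold change 2.11, SE 0.561, adjusted p = 0.0111). Its highest values also lay in libraries with muscle transcripts, and it was not called in Nrf2-KO (1.23, adjusted p = 0.0951). Without those libraries 0 members were called higher.

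As a sum, the 90 genes held 42082 to 48880 TPM in GC_WT and 38272 to 44098 in FL_WT, and 40939 to 42623 in GC_KO and 37035 to 41364 in FL_KO. The mean sum thus changed by -7.68% in WT and -6.905% in Nrf2-KO. The mice overlapped in both genotypes. By complex the changes in mean summed TPM were -7.66% and -6.22% (I), -5.95% and -11.3% (II), -13.8% and -14.9% (III), -9.56% and -5.13% (IV), and -0.445% and -2.84% (V), without a test. TPM was also rescaled without mitochondrially encoded genes, ribosomal protein genes, small RNA and genes named Gm with a number. The sum of all members then changed by -17.1% in each genotype. Complex III then changed by -22.6% and -24.3%, and complex V by -10.5% and -13.5%. Mitochondrially encoded transcripts made up 34.7% of TPM in GC_WT iBAT, so they set much of the TPM scale.

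Cell type markers moved as well in iBAT. Of the brown adipocyte list, 1 of 8 markers was higher and 1 lower in FL_WT, and 2 and 2 in FL_KO, with summed TPM of 4481 to 4965 in GC_WT, 5001 to 7025 in FL_WT, 3447 to 4942 in GC_KO and 3493 to 7052 in FL_KO. All 5 tested of the 9 erythroid markers were lower in both genotypes, and the summed TPM of the list went from 604 to 1091 in GC_WT to 336 to 538 in FL_WT. Macrophage markers were higher for 0 of 6 in WT and 4 of 6 in Nrf2-KO. The part of these cells in the subunit levels was not tested.

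The rest of the mitochondrial machinery in iBAT was read from lists of other pathway genes. Of the 13 mitochondrially encoded subunits 10 were lower in WT and 9 in Nrf2-KO by counts (medians -0.42 and -0.56), with mt-Nd1, a core subunit of complex I, at -0.40 and -0.86. Assembly factors were lower for 23 and 36 of 51 (medians -0.25 and -0.44), among them Higd1a, which acts on complexes III and IV, at -0.61 and -0.90 and Ndufaf7, a methyltransferase of complex I assembly, at -0.36 and -0.70. All 13 TCA cycle enzymes were lower in Nrf2-KO and 10 in WT (medians -0.27 and -0.50), as in Mdh2, which makes oxaloacetate (-0.37 and -0.72, adjusted p = 8.46e-08 in Nrf2-KO). On the TPM scale 3 and 6 mitochondrially encoded subunits were lower. Assembly factors had 3 and 7 lower and 9 and 9 higher, and TCA cycle enzymes 0 and 3 lower and 3 and 1 higher. Of all genes, 3.58% and 5.36% were lower and 55.8% and 65.3% higher on that scale. Without the 3 libraries with muscle transcripts, 7 and 8 mitochondrially encoded subunits, 23 and 35 assembly factors and 8 and 13 TCA cycle enzymes were lower by counts.

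Carriers and other entry points of electrons were lower for 7 and 14 of 20, with Cycs (cytochrome c) at -0.47 and -0.90 (adjusted p = 1.25e-07 in Nrf2-KO). Mitochondrial ribosomal proteins were lower for 41 and 62 of 76 tested (medians -0.23 and -0.39), with Mrpl16 at -0.61 and -0.87, and genes of import and the outer membrane for 6 and 10 of 21, with the ADP/ATP carrier Slc25a5 at -0.46 and -0.73. On the TPM scale more genes of these lists were higher than lower, except for the carriers in Nrf2-KO. Of all genes 55.8% were higher in WT and 65.3% in Nrf2-KO on that scale, and 3.58% and 5.36% were lower. Carriers had 1 lower and 6 higher of 19 in WT and 5 lower and 4 higher in Nrf2-KO, ribosomal proteins 1 and 16 in WT and 9 and 19 in Nrf2-KO, and import genes 0 and 9 in WT and 1 and 8 in Nrf2-KO. Without the 3 libraries with muscle transcripts 5 and 13 carriers, 34 and 54 ribosomal proteins and 6 and 12 import genes were lower by counts. The 19 regulators of mitochondrial genes divided by counts, with 1 lower and 2 higher in WT and 3 lower and 5 higher in Nrf2-KO (medians 0.04 and -0.04), while 10.3% and 8.83% of all genes were lower and higher in WT and 16.6% and 17% in Nrf2-KO. By TPM 0 of 17 were lower and 9 and 14 were higher (medians 0.37 and 0.40), where 55.8% and 65.3% of all genes were higher. Without the 3 libraries 0 and 2 regulators were lower and 2 and 6 higher by counts. Twnk, the mitochondrial DNA helicase, was higher at 0.26 (adjusted p = 0.0281) and 0.41 (adjusted p = 0.000983). Hif1a was higher in WT (0.51, adjusted p = 3.37e-06) and had 0.13 in Nrf2-KO (adjusted p = 0.0944). Ppargc1a, the coactivator of mitochondrial biogenesis, had 0.71 in WT (adjusted p = 0.314) and was higher in Nrf2-KO at 1.41 (adjusted p = 0.0343), and Tfam, which packages mitochondrial DNA, had -0.18 in WT and was lower in Nrf2-KO at -0.28 (adjusted p = 0.0199).

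Flown mice of both genotypes were then compared with each other in iBAT. Of the subunits 5 were lower in FL_KO than in FL_WT, where 1.27% of all genes were lower. They included Uqcrfs1 at -0.36 (SE 0.067, adjusted p = 0.00379), Uqcrc2, a core protein of complex III, at -0.35 (SE 0.067, adjusted p = 0.00591), Ndufs8 at -0.35 (SE 0.084, adjusted p = 0.0355), and Sdhc, a membrane anchor of complex II, at -0.28 (adjusted p = 0.0214). Uqcrfs1 lay at 363.9 to 386.06 TPM in FL_WT and 260.31 to 339.87 in FL_KO, and Uqcrc2 at 436.17 to 521.78 in FL_WT and 320.92 to 419.55 in FL_KO, without overlap. On both scales 4 of the 5 were called. Without the 3 libraries with muscle transcripts the count was 0, and without FL_KO mouse 11 or mouse 12 alone it was 2. The difference between the flight responses, tested as an interaction, was called for 0 members in iBAT, with the lowest adjusted p at 0.0844 for Uqcrc2 (-0.42, SE 0.093).

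Thymus was the other tissue with many calls. Of 80 subunit genes tested, 22 were lower in FL_WT (11% of all genes were lower) and 47 in FL_KO (18.9%). All 22 were among the 47, which is 100% of those lower in WT and 46.8% of those lower in Nrf2-KO. The median log2 fold change by counts was -0.15 and -0.21, against 0.02 and -0.01 over all genes, but on the TPM scale it was 0.09 and 0.05, against 0.18 and 0.16 over all genes. By TPM 0 of 76 members were lower by limma and 3 and 2 were higher, where 38.8% and 33.6% of all genes were higher. Subunits thus stood below the typical thymic gene on both scales, by -0.17 and -0.20 on counts and -0.10 and -0.11 on TPM, while a fall in their share of all transcripts was not seen. The summed TPM of the 90 genes was 5858 ± 314 on the ground and 6160 ± 438 after flight in WT (SD, n = 6 each). In Nrf2-KO it was 5187 ± 636 (n = 6) and 5281 ± 300.0 (n = 5).

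By complex, the lower genes in thymus of WT mice were 9 of 37 in complex I, 0 of 4 in complex II, 3 of 9 in complex III, 5 of 12 in complex IV and 5 of 18 in complex V, and in Nrf2-KO 20, 3, 7, 8 and 9. Uqcrh, the hinge protein of complex III, had -0.35 (SE 0.061, adjusted p = 0.000204) and -0.34 (adjusted p = 0.000224) by counts. Its TPM ranges overlapped, with 157.11 to 189.46 (median 176.82) in GC_WT and 132.72 to 176.44 (median 164.25) in FL_WT. Cox7a2l had -0.33 (adjusted p = 3.38e-05) and -0.32, and Ndufv3, an accessory subunit of the NADH-binding module, -0.33 (adjusted p = 6.58e-05) and -0.46 (adjusted p = 1.57e-06). Atp5h, of the peripheral stalk, had -0.29 and -0.36. These falls were smaller than those in iBAT, as the medians show.

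In thymus 6 subunits were lower in FL_KO than in FL_WT, where 1.34% of all genes were lower. They included Cox6a1 (-0.31, adjusted p = 0.00879), Cox8a (-0.24, adjusted p = 0.00394), Atp5d, the delta subunit of the rotor stalk (-0.23, adjusted p = 0.00809), and Ndufa6 (-0.22, adjusted p = 0.0333). Cox8a was at 129.86 to 159.81 TPM in FL_WT and 113.64 to 122.44 in FL_KO, which did not overlap. By TPM 1 of the 6 was called, and leaving out FL_KO mouse 01, 11 or 12 left 3. Marker genes of cell types moved as well in thymus. Of 8 T lymphocyte markers 5 were lower in FL_WT and 7 in FL_KO, with summed TPM of 2278 to 2653 in GC_WT, 2057 to 2447 in FL_WT, 1634 to 2492 in GC_KO and 1628 to 1857 in FL_KO. Macrophage markers were higher for 3 and 5 of 6, and B lymphocyte markers for 1 and 4 of 6 (FL_WT and FL_KO). The part of these cell types in the thymic subunit levels was not tested.

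White fat had few calls in either genotype, and the interaction of flight and genotype was called for 0 members. In eWAT, 8 of 83 subunits were lower in FL_WT (6.78% of all genes), and 1 was higher in FL_KO (3.73%). The 8 were Uqcrc2 (-0.41, adjusted p = 0.00095), Ndufa1 (-0.36, adjusted p = 0.0229), Atp5c1 (-0.33, adjusted p = 0.00856), Sdha (-0.32, adjusted p = 0.00553), Atp5b (-0.31, adjusted p = 0.0108), Uqcrfs1, Ndufs8 and Ndufa10. Uqcrc2 was at 166.12 to 180.33 TPM (median 176.8) in GC_WT and 128.79 to 164.5 (median 135.72) in FL_WT, which did not overlap. Ndufa7, an accessory complex I subunit, was higher in FL_KO at 0.43 (SE 0.103, adjusted p = 0.0132), with 170.19 to 183.05 TPM against 104.99 to 145.27 in GC_KO. By TPM 6 of 80 were lower and 5 higher in WT (4.19% and 16.6% of all genes), and 2 and 2 in Nrf2-KO (2.79% and 5.22%). The 6 were lower on both scales, and 1 member was higher on both in Nrf2-KO. Of 8 adipocyte markers 3 were lower in FL_WT.

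Liver had 1 call with flight in 79 subunits. Atp5a1, the alpha subunit of ATP synthase, was lower in FL_KO at -0.25 (SE 0.070, adjusted p = 0.0498), where 2.02% of all genes were lower, with 479.51 to 588.06 TPM in GC_KO and 467.82 to 533.75 in FL_KO, which overlapped. When the mouse number entered as a block, 2 subunits were lower in FL_KO and 1 in FL_WT (shares over all genes not given). In WT liver 0 were called without the block, where 3.45% of all genes were called in either direction. There 6 subunits had an unadjusted p under 0.05, a count that cannot be compared with that share. By TPM 4 subunits were higher in each genotype (limma), where 6.22% of all genes were higher in WT and 15.6% in Nrf2-KO.

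Temporal bone had the most uniform shift without a call. In FL_WT, 82 of 85 subunits had a log2 fold change below 0 by counts, with a median of -0.35. The sign differed on the TPM scale for 9 of 82 genes. By counts 64 had an unadjusted p under 0.05, but 0 passed adjustment by edgeR and 4 by DESeq2 (share over all genes not given). Of all 18184 genes tested 675 had an unadjusted p under 0.05, and 0% were called. In FL_KO the median was -0.10, 0 had an unadjusted p under 0.05 and 0% of all genes were called. The summed TPM of the 90 genes was 16713 to 20589 in GC_WT, 14983 to 19212 in FL_WT, 16431 to 18716 in GC_KO and 14880 to 18932 in FL_KO, a change in the mean of -10.7% in WT and -1.02% in Nrf2-KO. Cell type lists also shifted in TpB without a call. The adipocyte list of 8 markers had a median log2 fold change of -1.36 in WT, with summed TPM of 503 to 1392 in GC_WT, 179 to 718 in FL_WT, 13.5 to 1407 in GC_KO and 221 to 668 in FL_KO, and the muscle list had a median of -0.94. The part of adipocytes in the subunit levels was not tested. The skeletal muscle sum was 12370 to 33389 TPM in GC_WT, 5568 to 22809 in FL_WT, 441 to 42973 in GC_KO and 4844 to 33023 in FL_KO, and with the muscle level as a covariate the median in WT was -0.31 and 62 had an unadjusted p under 0.05.

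In MdB, Spl, Kid and Cbr edgeR called 0 subunits with flight. Counts at an unadjusted p under 0.05 were 5 (WT) and 0 (Nrf2-KO) in MdB, 6 and 4 in Spl, 13 and 13 for Kid and 0 and 1 for Cbr. Of all genes, 0% and 0% were called in MdB, 2.26% and 0.668% in Spl, 0.119% and 0.159% in Kid. For Cbr the shares were 0.0244% and 0.0061%. These shares rest on adjusted p, so the counts at an unadjusted p cannot be compared with them. MdB and Kid had at most 3 mice per group, and a difference of the size seen in iBAT may not be detectable there. The plot of medians by tissue shows where the members parted from the other genes.

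**Figure D5:**
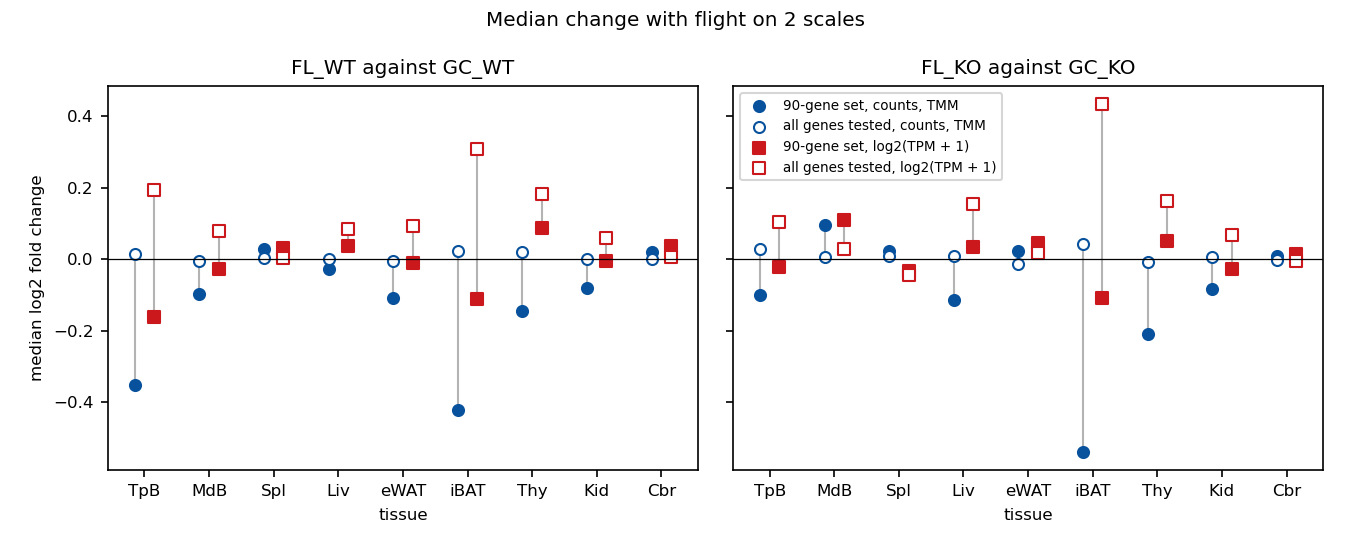
Median log2 fold change of the subunit genes and of all genes tested, by tissue, in FL_WT against GC_WT and FL_KO against GC_KO, on TMM-normalised counts and on log2(TPM + 1). In iBAT the members lie below all genes on both scales (-0.42 against 0.02 in WT by counts), and in Thy they lie below all genes on both scales but above 0 by TPM (0.09 in WT).

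The last question was whether loss of Nrf2 by itself, on the ground, altered these genes. Of the 745 pairs, 1 was called between GC_KO and GC_WT, where 1.65% of all tested pairs of gene and tissue were called. It was Atp5s in liver, a coupling factor, at -0.81 (SE 0.206, adjusted p = 0.0312), where 1.7% of all genes were lower. Its level was only 1.53 to 3.21 TPM in GC_WT and 0.94 to 1.85 in GC_KO, with overlap. The interaction of flight and genotype was called for 0 of the 745 pairs by edgeR (0% of all tested pairs). DESeq2 called it for 3, and its share over all genes is not given. By edgeR 38 pairs had an unadjusted p under 0.05. The pairs come from the same mice and pool all tissues, so this count cannot tell an effect within a tissue from none. The larger counts in Nrf2-KO than in WT in iBAT and Thy were thus not matched by a called difference in the response of any single subunit by edgeR.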

How the data were processed

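RNA-seq of 192 samples from 9 tissues was analysed, of which 184 were used after FL_KO mouse 04 was left out, as in the study. Per the labels and the study's methods, the authors made strand-specific poly(A) libraries (rRNA-depleted total RNA in Thy), mapped single reads to mm10 with STAR 2.6.1 and estimated genes of GENCODE vM20 with RSEM 1.3.1. The strand setting used for counting is not given in the sources used here, so reads of overlapping antisense genes may be shared. What the authors deposited are RSEM's expected counts, without normalization, and its TPM, which add up to 1 total for every library (deposited by the authors too). FPKM, in 192 columns, was not used.

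Expected counts were rounded and fitted per tissue with edgeR 4.0.16 (R 4.3.3), with filterByExpr, TMM factors and the quasi-likelihood test over 4 groups in 1 fit. Benjamini-Hochberg adjustment ran over all genes tested in a tissue, and genes under 0.05 were called. P-values measure the spread between mice of these groups. Alternatives were limma 3.58.1 on log2(TPM + 1), for genes that averaged 5 TPM or more in at least 1 group, DESeq2 1.42.0, RLE factors, no filter, mouse 04 included, only the compared groups, the mouse number or the TpB library set as a block, and each mouse left out in groups of up to 5. Fits without 3 iBAT libraries and with the muscle level as a covariate (mean log2(TPM + 1) of the muscle list) were chosen after seeing the data. The steps were tested on simulated data.

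A number shared by a flown and a ground mouse does not mean the same animal. Their deviations from the group means correlated above 0.1 in all 5 Nrf2-KO pairs in Liv (0.222 to 0.369), and values with the block are given there. Members, pathway lists and markers were chosen with earlier results of these data known. Named genes were up to 5 called members per direction and tissue with the largest change and at least 5 TPM, paired isoforms, the highest and lowest member per complex, members called in 5 or more combinations, up to 3 genes per pathway list, and Nfe2l2. The regulators Ppargc1a and Tfam, Cox4i1 and Cox7a2l in iBAT, Atp5s, and the genes in the outlier counts were named beyond these for their roles or after their values were seen. Results on 1 gene are counted but not reported here. Promoter windows came from RefSeq on GRCm38.p6.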

Additional observations from a re-analysis of the deposited data

Results flagged for a closer look

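Of 148 groups of 4 to 10 mice that were tested for a lone value, 7 held one beyond Dixon's limit, where chance flags about 1 in 20. In Thy, Atp5d was at 123.39 TPM in GC_WT mouse 08 (105.12 to 107.79 in the others), and Ndufb11 at 50.86 TPM in GC_WT mouse 10 (48.99 to 49.48). In eWAT, Uqcrc2 was at 148.43 TPM in FL_KO mouse 09 (135.82 to 138.3). In iBAT, Atp5g1 was at 17.76 TPM in FL_KO mouse 11 (3.56 to 4.38), and Cox6a2 at 123.9 TPM in the same library (0 to 1.36), which was 1 of the 3 with muscle transcripts. Cox6a2 also stood out at low levels, at 0.73 TPM in GC_WT mouse 03 (0 to 0.13) and 1.32 TPM in GC_KO mouse 12 (0 to 0.13).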

How the results depend on the processing

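Of 501 values that alternatives gave for 39 named results, 426 kept their direction and their side of the threshold, 73 were no longer called and 2 were opposite. The expression scale moved the counts most. Counts under the alternatives carry no share over all genes in this section, so they show only how the calls moved. With limma on log2(TPM + 1), members called in all tissues numbered 59 in FL_WT against GC_WT (99 by edgeR), 49 in FL_KO against GC_KO (123) and 3 in GC_KO against GC_WT. In iBAT they numbered 32 and 31 lower with flight and 8 in FL_KO against FL_WT, in Thy 0, 0 and 1, and without the 3 iBAT libraries with muscle transcripts 32, 26 and 2 in iBAT. The median of the members changed sign to 0.0859 and 0.0503 in Thy and to 0.0346 in Liv of Nrf2-KO on this scale, and to -0.0025 in eWAT of Nrf2-KO with mouse 04 included. Cox6a2 in iBAT changed sign to -0.26 and -0.79 with the muscle level as a covariate.

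FL_KO against FL_WT depended most on the choice of libraries and genes. Its 11 calls became 5 without a filter (2 in iBAT, 3 in Thy), 4 with only the compared groups (1 and 3), 6 with mouse 04 (0 in Thy) and 6 without the 3 muscle libraries (0 in iBAT), and DESeq2 gave 9 in iBAT. GC_KO against GC_WT gave 0 without a filter and with only the compared groups, and the interaction 3 by DESeq2. The cause was not tested.

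When single mice were removed from groups with at most 5 (FL_KO, and all groups of MdB and Kid), calls in FL_KO against FL_WT were 5 to 11 in all (7 without FL_KO mouse 01, 5 without 11 or 12), 2 to 5 in iBAT and 3 to 5 in Thy. Groups of 6 mice were not reduced, so the values for WT with flight show only how the shared spread moves them outside MdB and Kid. With flight they were 98 to 103 in WT and 112 to 123 in Nrf2-KO in all, 67 to 68 and 72 to 74 in iBAT, 22 to 27 and 35 to 47 in Thy, and 7 to 7 in eWAT of WT. GC_KO against GC_WT gave 1 to 1 and the interaction 0 to 0. With the mouse number as a block, calls with flight were 98 and 119 in all, 67 and 70 in iBAT, 20 and 46 in Thy and 8 in eWAT, and the interaction 0. In Liv the block gave 1 in WT and 2 in Nrf2-KO. With each mouse of both groups left out, the isoform ratio differences in iBAT ranged from -0.40 to -0.29 and -0.64 to -0.59 for Cox7a1 to Cox7a2 and from -0.27 to -0.13 and -0.29 to -0.18 for Cox8b to Cox8a (WT and Nrf2-KO), with an exact permutation p of at most 0.0476. Library sets as a block in TpB changed no count. Low members limit the precision, as Atp5g1 and Cox6a2 in iBAT and Atp5s in Liv lie near 1 TPM.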
